A study of Mus musculus with 2 samples.

Results

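The Hippo pathway genes described here are 10 members chosen by name, the coactivators Yap1 and Wwtr1, the DNA-binding factors Tead1, Tead2, Tead3 and Tead4, the kinases Lats1 and Lats2, and the target genes Cyr61 and Ctgf (now named Ccn1 and Ccn2). They were read through every non-control probe of the array that carries one of these names, which gave 14 probes among 39418 and 10 genes among 25508 named ones. All 14 probes were well above background on both arrays, so all 10 members were among the 15154 measured genes, and 0 of their spots were saturated. The array also carries a probe named Taz, but its accession belongs to a different gene on chromosome X and not to Wwtr1, whose protein is often called TAZ.

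Gastrocnemius RNA of wild-type male C57BL/6 mice aged 9 weeks was measured in 2 groups, untreated controls and animals whose hindlimb a plaster cast had held still for 11 days. The labels give 6 mice for each group and state that samples were pooled, and the Cy3-labelled cRNA of a pool went onto 1 array. With n = 1 array per group there is no replicate, no p-value and no SE, and every difference below describes these 2 pools. The tissue label was borne out by the fibre markers Ckm, Acta1, Myh4, Tnnt3 and Pygm, all 5 measured on both arrays, with a summed signal of 236000% of the 75th percentile in control and 185402% in cast.

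The Hippo pathway is a kinase cascade that holds back growth. LATS kinases phosphorylate YAP and TAZ, which then stay in the cytoplasm or are degraded, whereas unphosphorylated YAP and TAZ enter the nucleus, bind TEAD factors and switch on genes such as Cyr61 and Ctgf. The pathway responds to mechanical load and the actin cytoskeleton, and in skeletal muscle YAP has been linked to fibre size and TEAD factors to muscle gene promoters. Arrays read transcript levels, and phosphorylation and location of the proteins were not measured.

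Signals are given as a percentage of each array's 75th percentile, and log2 ratios are log2(cast/control) on that scale, with the SD between replicate spots at a similar signal as error. That spot-level SD covers neither mice nor hybridisations. Cyr61 stood highest among the members, followed by Ctgf and Tead4, whose order turned under quantile and loess scaling, and the coactivators lay near 0. Of the 10 members, Cyr61, Ctgf and Tead4 (3 genes) exceeded control by 1.5-fold or more in cast, against a background of 7.04% of all measured genes, and 0 were at least 1.5-fold lower, against 8.24%. At 2-fold, 1 member was higher (Cyr61), against 2.23% of genes, and 0 were lower, against 2.11%. The median of the 10 log2 ratios was -0.10, beside -0.03 for all measured genes, and 4 members lay above 0 and 6 below.

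**Figure D1:**
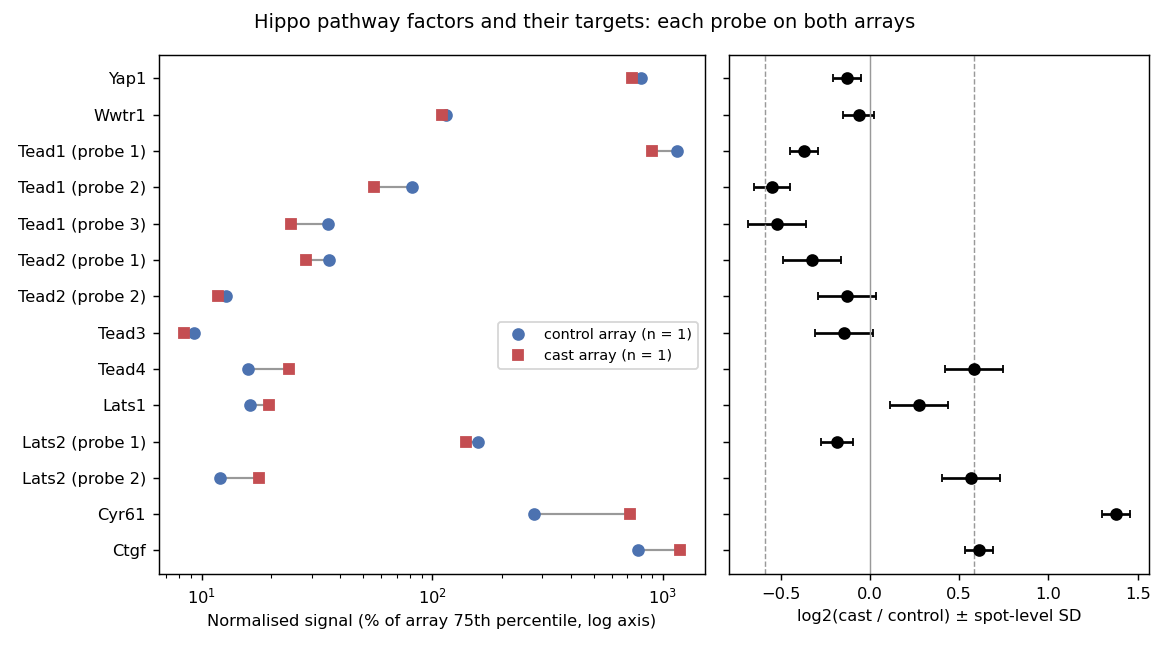
Left, normalised signal of each of the 14 probes on the control array (circles) and the cast array (squares), in percent of the array's 75th percentile on a log axis; brightness is not comparable between probes. Right, the log2 ratio of cast over control with the spot-level SD, and dashed lines at 1.5-fold. Cyr61 lies alone to the right at 1.38, and the 3 Tead1 probes lie between -0.55 and -0.37.

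Cyr61 encodes a secreted, matrix-associated CCN protein that binds integrins, and it is among the most used readouts of YAP and TAZ. Its promoter is printed first because Cyr61 had the largest difference, and those of Yap1 and Wwtr1 follow as members that encode the coactivators and hardly differed. Each run is the 250 bases before the transcript start on the gene's strand, from RefSeq on GRCm38.p6, and capitals mark matches to GGAATG or the longer GGAATGT, the TEAD motif, on either strand. They lie at chr3:145649986-145650235 (minus strand) for Cyr61, chr9:8004597-8004846 (minus strand) for Yap1 and chr3:57575877-57576126 (minus strand) for Wwtr1.
Cyr61: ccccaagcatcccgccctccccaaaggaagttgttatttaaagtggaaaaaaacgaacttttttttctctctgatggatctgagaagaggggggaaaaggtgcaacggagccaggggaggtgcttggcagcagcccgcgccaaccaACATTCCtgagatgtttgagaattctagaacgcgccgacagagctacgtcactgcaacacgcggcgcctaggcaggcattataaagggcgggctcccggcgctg
Yap1: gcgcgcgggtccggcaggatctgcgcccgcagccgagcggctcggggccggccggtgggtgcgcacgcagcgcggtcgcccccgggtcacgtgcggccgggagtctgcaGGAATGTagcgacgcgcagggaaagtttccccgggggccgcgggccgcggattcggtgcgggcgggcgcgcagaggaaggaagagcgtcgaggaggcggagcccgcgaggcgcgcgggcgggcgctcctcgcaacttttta
Wwtr1: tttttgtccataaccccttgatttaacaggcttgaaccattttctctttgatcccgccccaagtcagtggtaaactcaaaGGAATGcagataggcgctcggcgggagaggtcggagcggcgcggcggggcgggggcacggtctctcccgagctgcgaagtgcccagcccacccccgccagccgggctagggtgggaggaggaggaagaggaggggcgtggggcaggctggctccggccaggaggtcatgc

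In the Cyr61 promoter the match reads ACATTCC and spans positions -104 to -98 from the start. In Yap1 the forward match GGAATGT spans -141 to -135, and in Wwtr1 GGAATG spans -170 to -165. Promoters were matched for 7 of the 10 members, at 11 transcript starts. For Ctgf, Tead1 and Tead4 no promoter entry was available, so these were not searched for the motifs. GGAATG was found at 6 starts of 4 members (Yap1, Wwtr1, Tead3 and Cyr61), and the longer GGAATGT, which contains it, at 3 starts of 3 members (Yap1, Tead3 and Cyr61). Of all 32851 promoter windows of this length, 12.6% hold GGAATG and 3.25% hold GGAATGT on either strand. The CArG box, the motif of serum response factor, was in 0 of the 11 windows and in 1.47% of all. These are matches of letters in a short window, and both Wwtr1 starts share 1 match.

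Cyr61 had a signal of 276% in control and 718% in cast. The cast array was thus the high one, 2.60-fold above control, a log2 ratio of 1.38 ± 0.08 (spot-level SD). It ranked 142 from the top among the 15154 measured genes, with 0.93% of genes above it. Its single probe lies on mm9 at chr3:145310187-145310246. The ratio kept its direction under all 10 alternative settings, from 1.32 with normexp background correction to 1.73 with spike-in scaling. Among these, the background filters and the mean of probes could not change it, because Cyr61 has a single probe, measured on both arrays.

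Ctgf, a second secreted CCN protein with a part in fibrosis and tendon and cartilage growth, had a signal of 778% in control and 1188% in cast. Cast was again the high array, 1.53-fold above control, with a log2 ratio of 0.61 ± 0.08 (spot-level SD), and 6.48% of genes lay above it. Its probe lies on mm9 at chr10:24318281-24318340. The Ctgf ratio sat close to the 1.5-fold line and was below it with quantile scaling (0.55) and loess scaling (0.56). Cyr61 exceeded Ctgf by 0.77 on the log2 scale.

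Both targets belong to the CCN family of secreted matricellular proteins, of which 5 of 6 genes were measured. The family did not differ in 1 direction. Ccn3 was 1.54-fold lower on the cast array, at 10.8% in control and 6.96% in cast, and Ccn4, a Wnt-induced member, was 1.52-fold lower, at 13.5% and 8.89%. Both were below 1.5-fold under each of the 4 other scalings and unscaled, and with normexp correction their log2 ratios were -0.24 and -0.35. Ccn5 had a log2 ratio of 0.33, and Ccn6 was well above background on neither array. Leaving the arrays unscaled places the all-gene median, and every log2 ratio given here, 0.34 higher, and scaling to the spike-in controls places them 0.35 higher.

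The coactivators came next. Yap1 had a signal of 804% in control and 736% in cast, a log2 ratio of -0.13 ± 0.08 (spot-level SD). The sign was positive under spike-in scaling, at 0.22, and without scaling, at 0.21. Wwtr1 had 115% in control and 110% in cast, a log2 ratio of -0.06 ± 0.09 (spot-level SD), which was positive under median scaling (0.02), spike-in scaling (0.29) and without scaling (0.27). Wwtr1 thus moved by less than the spot-level SD, Yap1 by 1.63 times it, and both sat in the middle of the distribution, with 60.7% of genes above Yap1 and 53.8% above Wwtr1. The Yap1 probe lies on mm9 at chr9:7932025-7932084 and the Wwtr1 probe at chr3:57259999-57260058.

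**Figure D2:**
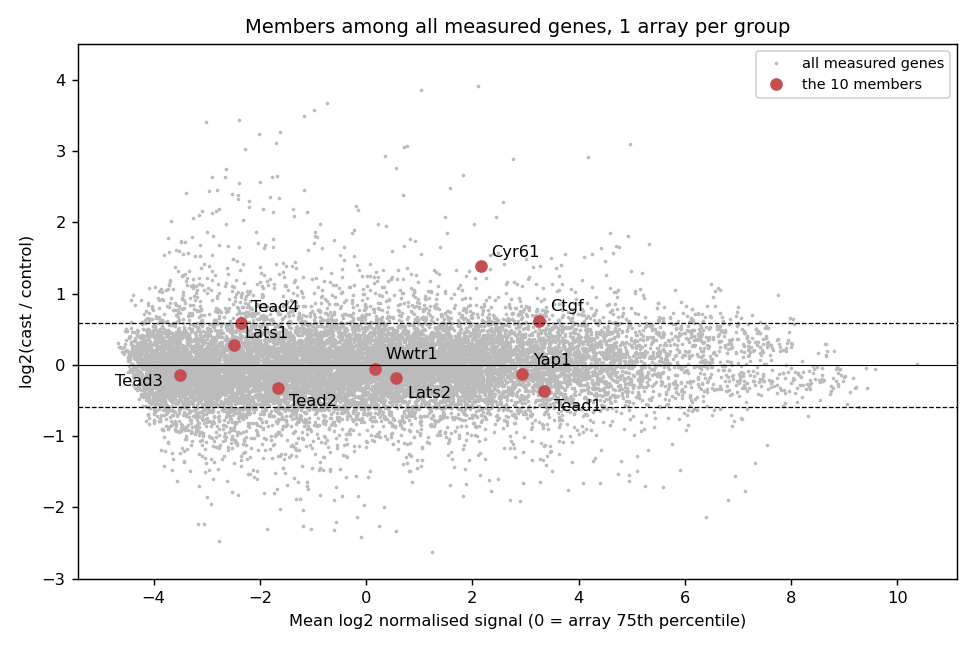
Log2 ratio of cast over control (vertical axis) against the mean log2 normalised signal (horizontal axis, 0 at the array's 75th percentile) for all measured genes (grey) and the 10 members (red), with dashed lines at 1.5-fold; 4 genes fall outside the plotted range. Yap1, Wwtr1, Tead3 and Lats2 lie inside the bulk of genes and Cyr61 lies above it.

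The TEAD factors, which carry the DNA-binding domain that YAP and TAZ lack, did not differ in 1 direction. Tead1, known to bind MCAT elements in muscle gene promoters, was lower on the cast array with all 3 of its probes, and Tead4, a factor of myogenic differentiation, was higher. The brightest Tead1 probe had 1153% in control and 894% in cast, a log2 ratio of -0.37 ± 0.08 (spot-level SD), or 1.29-fold lower. The second probe had 81.4% and 55.6%, a log2 ratio of -0.55, and the third had 35.2% and 24.5%, a log2 ratio of -0.52. The 3 probes, all designed on transcript variant 1, averaged -0.48 ± 0.10 (SD between probes, n = 3). They read 1 pool per group and are not replicates of the condition. Tead1 stayed below 0 in all 10 alternative settings, with -0.02 when scaled to spike-ins and -0.03 unscaled. Of all measured genes, 81.7% had a higher ratio. On mm9 the probes lie at chr7:120049844-120049903, chr7:120042204-120042263 and chr7:120043445-120043504.

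Tead4 had a signal of 15.9% in control and 23.8% in cast, a log2 ratio of 0.59 ± 0.16 (spot-level SD). This lies on the 1.5-fold line used for the count, with a log2 ratio of 0.5853 against 0.5850 for the line. The probe is dim. Its raw mean brightness was 128 in control and 194 in cast over a local background of 43.5 and 42, and the local background of the cast spot carried the scanner's non-uniformity flag. With normexp background correction the ratio was 0.28, below 1.5-fold, and it was between 0.59 and 0.93 in the other 9 settings. Among those, the background filters and the mean of probes could not change the value of this single probe. The Tead4 probe lies on mm9 at chr6:128177161-128177220. Tead4 exceeded Tead1 by 0.95 on the log2 scale.

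Tead2, best known from the embryo, and Tead3, best known from the placenta, showed smaller differences. The brighter Tead2 probe had 35.7% in control and 28.5% in cast, a log2 ratio of -0.32 ± 0.16 (spot-level SD), and the dimmer one -0.13. Tead3 had 9.25% in control and 8.36% in cast, a log2 ratio of -0.15 ± 0.16 (spot-level SD), so that it moved by less than that SD. Both genes were positive without scaling or when scaled to spike-ins. Tead2 was then at 0.01 and 0.02, and Tead3 at 0.19 and 0.20, which is more than its spot-level SD. The brighter Tead2 probe lies on mm9 at chr7:52488930-52488989, and the Tead3 probe at chr17:28468622-28468681.

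The LATS kinases, which restrain YAP and TAZ, were split by probe. Lats1 had a signal of 16.2% in control and 19.6% in cast, a log2 ratio of 0.27 ± 0.16 (spot-level SD), which was 0.09 with normexp correction and passed 1.5-fold unscaled (0.61) and when scaled to spike-ins (0.62). Its probe lies on mm9 at chr10:7432671-7432730. Lats2 was read by 2 probes, which the array annotates to transcript variants A and B, and whether each reads only that variant was not tested. The probe for variant A had 158% in control and 139% in cast, a log2 ratio of -0.18 ± 0.09 (spot-level SD). The probe for variant B had a processed signal of 46.2 in control and 86.4 in cast before scaling, a scaled log2 ratio of 0.57 ± 0.16 (spot-level SD). The probes thus had opposite signs and stood 0.75 apart on the log2 scale. The variant A probe was at 0.15 unscaled and 0.17 when scaled to spike-ins, so both probes were then above 0. They lie 32.4 kb apart on mm9, at chr14:58308807-58308866 for variant A and chr14:58341225-58341284 for variant B. With the mean of both probes Lats2 was at 0.19. Lats2 is itself a known target of YAP and TEAD, and its 2 promoter windows held 0 matches to GGAATG.

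**Figure D3:**
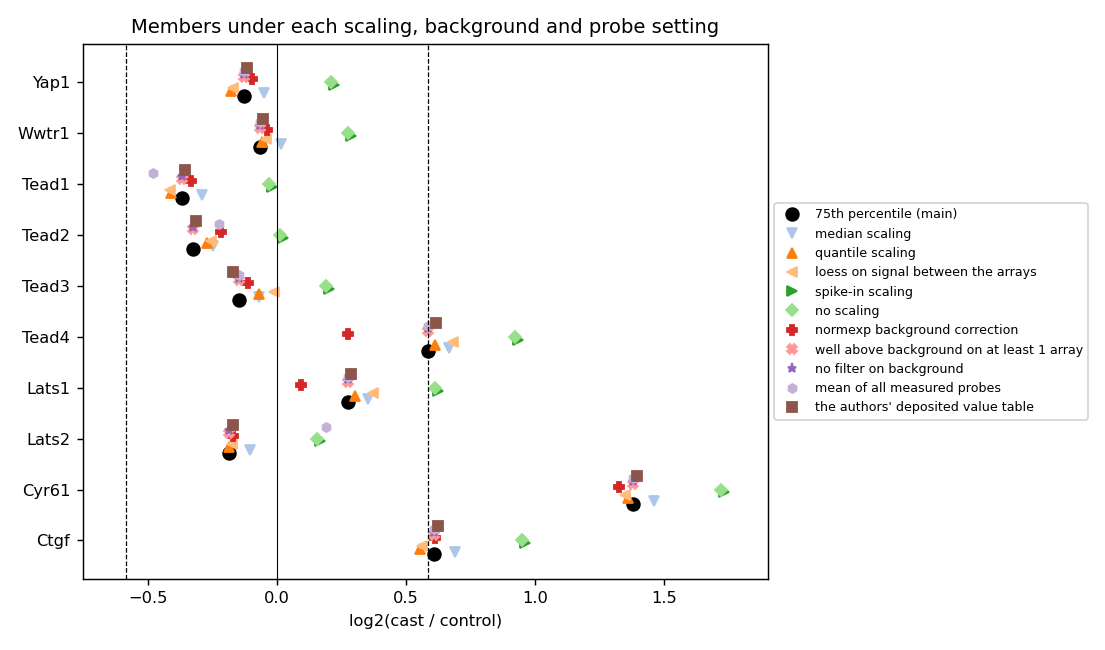
Log2 ratio of cast over control (horizontal axis) for each member (vertical axis) under the 75th percentile scaling (black circles) and 10 alternative settings (other symbols), with dashed lines at 1.5-fold. Cyr61, Ctgf, Tead4 and Lats1 stay right of 0 and Tead1 stays left of 0 in every setting drawn, while Yap1, Wwtr1, Tead2, Tead3 and Lats2 cross 0.

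Upstream components of the cascade were taken from a list of 23 genes, with the MST kinases Stk3 and Stk4, their scaffold Sav1, the MOB1 cofactors, the tumour suppressor merlin (Nf2) and atypical cadherins. Of 22 measured genes, 1 was at least 1.5-fold higher, 0 were lower, and 8 (36.4%) lay above 0, beside 7.04%, 8.24% and 46.9% of all measured genes. The median was -0.08, and it was 0.25 unscaled and 0.26 when scaled to spike-ins. The gene past 1.5-fold was Nf2, with 174% in control and 297% in cast, a log2 ratio of 0.77, and its dim second probe gave 2.78. Below that line, Rassf1, a scaffold that binds MST kinases, was at 0.56, Sav1 at 0.51 and Wwc1 (KIBRA) at 0.44. Wwc1 is dim, at 5.79% in control and 7.83% in cast. With normexp correction it was at 0.03, while Rassf1 was at 0.61 and Sav1 at 0.59. The cadherin Fat4 was at -0.43, and Taok2, a kinase that can activate MST and LATS, was at -0.39 while its dimmer probe gave 0.92.

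Binding partners and negative regulators of YAP, TAZ and TEAD formed a list of 20 genes, which also holds the striatins Strn, Strn3 and Strn4 and their partner Slmap. Of 18 measured, 3 were at least 1.5-fold higher, 0 were lower and 11 (61.1%) lay above 0, beside 7.04%, 8.24% and 46.9% of all measured genes. The median was 0.13, or 0.47 unscaled and 0.48 when scaled to spike-ins. Ptpn14, a phosphatase that binds YAP, had 27.4% in control and 51.3% in cast and was 1.87-fold higher. Angiomotin (Amot), which holds YAP at junctions and on actin, had 1539% in control and 2619% in cast and was 1.70-fold higher. Strn4, a subunit of the phosphatase complex that acts on MST kinases, was 1.51-fold higher. With normexp correction Ptpn14 (0.55) and Strn4 (0.58) were below 1.5-fold. The LIM protein Limd1, which binds LATS, was at 0.38, and Amotl1 and Strn were both at 0.28. Strn is dim, at 5.52% in control and 6.69% in cast. Its log2 ratio was -0.08 with normexp correction, where Amotl1 was at 0.19 and Limd1 at 0.40. Vgll1 and Vgll3, TEAD cofactors, were well above background on neither array.

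A signature of 22 YAP and TAZ target genes drawn from human cancers holds 3 of the members, Cyr61, Ctgf and Lats2. Of 18 measured genes, 15 (83.3%) lay above 0, 7 were at least 1.5-fold higher and 1 was lower. Over all measured genes these shares were 46.9%, 7.04% and 8.24%. The median was 0.47, beside -0.03 for all measured genes, and it ranged from 0.33 with normexp correction to 0.82 with spike-in scaling. Without the 3 members, 13 of 15 lay above 0 and the median was 0.44. The highest was Ankrd1, a stretch-responsive sarcomere protein, with 53.9% in control and 781% in cast, 14.5-fold higher. The stress gene Gadd45a was 2.47-fold higher and the IGF-binding protein Igfbp3 1.95-fold, and Ptpn14 is in this list too. Crim1, a BMP-binding transmembrane protein, was 1.57-fold lower. Of the 4 genes outside that count, Myof and Foxf2 were well above background on neither array. Nuak2 and Rbms3 were so on the control array only. Nuak2 had 6.56% in control and 3.90% in cast, a measured log2 ratio of -0.75. Rbms3 had 3.89% in control and 4.46% in cast, a measured log2 ratio of 0.20. Neither cast signal was well above background, and spike-in scaling places both ratios 0.35 higher.

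**Figure D4:**
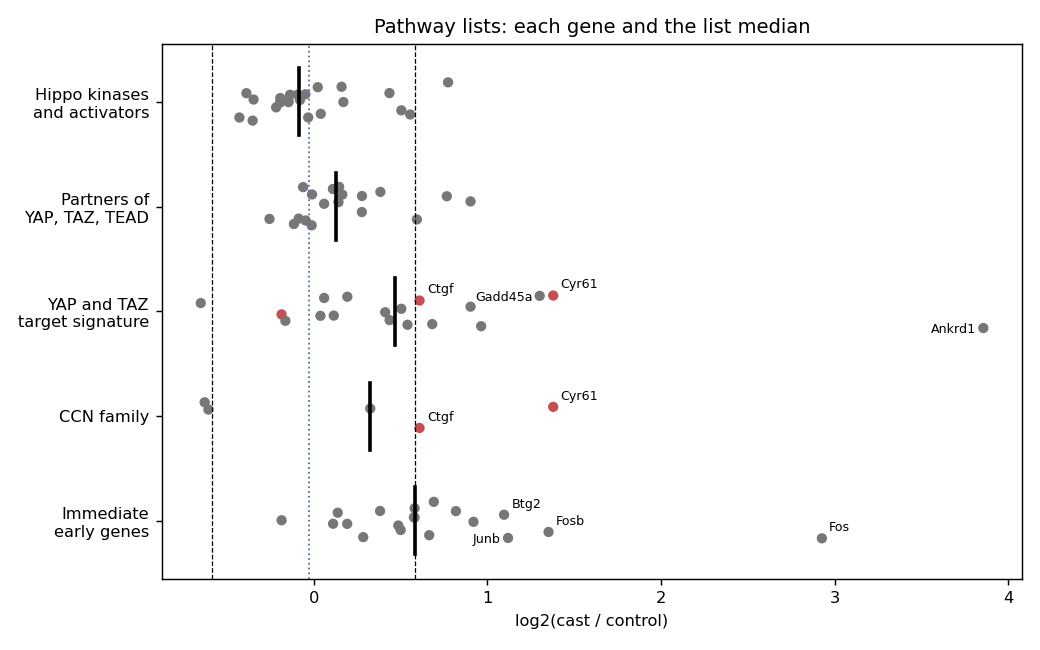
Log2 ratio of cast over control for each measured gene (points, members in red) in 5 pathway lists, with the list median (black bar), dashed lines at 1.5-fold and a dotted line at the median of all measured genes; points are spread vertically at random. The target signature and the immediate early genes have medians of 0.47 and 0.58, and the Hippo kinases have a median of -0.08.

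Cyr61 is also known as an immediate early gene, so a list of such genes stands beside it. Of 19 measured immediate early genes other than Cyr61, 18 lay above 0, 8 were at least 1.5-fold higher and 0 lower. The shares over all measured genes were 46.9%, 7.04% and 8.24%. Beside -0.03 for all measured genes, the list median was 0.58. With normexp correction the median was 0.36. The growth-response factor Egr1 was 1.89-fold higher, Atf3 1.76-fold and the antiproliferative Btg2 2.14-fold. The AP-1 genes Fos, Fosb and Junb were 7.60-fold, 2.55-fold and 2.17-fold higher. With normexp correction the log2 ratios of Junb, a dim probe at 7.06% in control, and of Atf3 were 0.29 and 0.53, both below 1.5-fold, and Fosb was at 0.92, below 2-fold. Their part in the Cyr61 difference was not tested.

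Other cell types add RNA to whole muscle, and fewer cells of a type cannot be told apart from less RNA per cell. Fibroblasts and endothelium are among the cells known to make Cyr61 and Ctgf. All 6 fibroblast markers were below 0, with a summed signal of 15882% in control and 11127% in cast, and Col1a1 was 3.38-fold lower. The fibroblast median was -0.74, or -0.39 when scaled to spike-ins. That scaling's shift of 0.35 exceeds the size of 2 of the 6 ratios, Pdgfra at -0.07 and Dcn, the brightest of the list, at -0.29, and turns both positive. The 5 endothelial markers, with sums of 1643% and 1195%, had a median of -0.32, or 0.03 when scaled to spike-ins. The smooth muscle and pericyte list was split, with 3 of 6 above 0, and its sum of 6689% and 9959% was carried by desmin, which muscle fibres also make. For 4 measured of 6 macrophage markers the sums were 542% and 566%, and Cd68 and Cd163 were well above background on neither array. These sums were carried by Csf1r at 473% and 477%. Lyz2 was at a log2 ratio of 0.58, the dim Ptprc at 0.49 and Adgre1 at -0.06. The macrophage median was 0.25, or 0.07 with normexp correction. Satellite cell markers, 3 of 5 measured, summed to 376% and 850%, a difference carried by Cdh15 at 317% and 807%, while Pax7 was at a log2 ratio of 0.08 and Vcam1 was 1.65-fold lower. Tendon markers, 5 of 5 measured, had a median of -0.81, which is the value of the dim Mkx at 11.0% and 6.25%. The median was -0.46 when scaled to spike-ins and -0.38 with normexp correction. Tnmd, Fmod and Mkx (3 genes) were at least 1.5-fold lower, against 8.24% of all measured genes. The sum of the 5 tendon markers, 3279% and 3558%, was carried by Thbs4 and Scx, both higher. Schwann cell markers, 4 of 4, summed to 203% and 211%, and adipocyte markers, 3 of 4, to 3859% and 3452%. The part of cell makeup in the Cyr61 and Ctgf differences was not tested.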

How the data were processed

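Per the submitters' processing notes, Agilent Feature Extraction 9.5 produced the scanner files. Per the file headers, their processed intensity is background-subtracted and detrended on each array, without scaling across arrays. The authors' deposited value table holds the same intensity divided by the array's 75th percentile and multiplied by 100, found by comparison, with 54.9% of values rounded to whole numbers, and served as an alternative.

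Control spots and spots with a non-uniformity flag (2 and 9) were left out, signals were log2-transformed, spots of a probe averaged, and each array's 75th percentile (385 in control, 486 in cast) subtracted. A gene was measured when a probe was well above background on both arrays (23896 and 22373 of 39418 probes), and took its brightest such probe. Names came from accessions in the RefSeq table of GRCm38 (26048 probes) or else from the array, leaving out LOC names. The lowest signal well above background was 13.1 in control and 20.6 in cast. The spot-level SD came from 259 replicated probes in 4 bins of signal. Probe coordinates are mm9, per the file headers, and no gene models of that build were used, so the exon a probe reads is not given. With 1 array per group no test was possible, and precision is limited by that number. Python 3.11.15 and limma 3.58.1 were used, and the calculation was tested on simulated data.

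The members, gene lists and settings were chosen with earlier results of these data known. The text names all members and, of each pathway list, up to 6 genes with the largest absolute log2 ratio, except that 1 list and 1 further gene are not reported here. Other genes, such as Crim1 and the Stk38l and Slmap probes, were named after their values were seen, as were single cell type markers.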

Additional observations from a re-analysis of the deposited data

How the results depend on the processing

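The 10 alternative settings changed no direction of a member that passed 1.5-fold. The count of members at least 1.5-fold higher was 3 in the main setting, 2 with quantile, loess or normexp, and 4 with no or spike-in scaling, and it was 1 with a fold of 2. The counts of members at least 2-fold higher and of members lower were the same in all 10. The median of the members, -0.10, became 0.25 with spike-in scaling, 0.24 with no scaling and 0.064 with the mean of probes. Of all 15154 measured genes, 1067 were at least 1.5-fold higher and 1249 lower. These counts were 1422 and 952 with median scaling, and 3705 and 392 with spike-in scaling. They were 3591 and 405 with no scaling, and 742 and 682 with normexp. Without a filter on background they were 1980 and 2734, but of 25508 genes. Of 410 single-gene values for 41 named genes, 293 moved by less than the spot-level SD, 117 moved by more and 0 reversed a 1.5-fold difference. The 293 include values that could not move. For a gene with a single probe, measured on both arrays, the background filters and the mean of probes change nothing. The deposited table repeats the main scaling apart from its rounding and the spots it includes. The dimmest member probes (both of Tead2, the third of Tead1, those of Tead3, Tead4 and Lats1, and that of Lats2 variant B) had a spot-level SD of 0.16. No paired analysis was possible because each group has 1 array.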

Other observations

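Over all 6 pathway lists, 29 genes that are not members were measured by several probes, and for 9 of them the probes differed in sign. Those counts include the list not reported here, from which Cfl2 comes. For Ywhaz, at log2 ratios of -0.01, 0.08 and 0.02, the values lay within the spot-level SD of 0.16. Cfl2 was 1.74-fold higher on the cast array by its brighter probe, at 2394% and 4176%, and 1.46-fold lower by the other, at 965% and 659%, although both carry the same transcript accession. Taok2 was 1.31-fold lower by a probe for variant 2 and higher by a dim probe for variant 1, at a log2 ratio of 0.92. Stk38l, an NDR kinase related to LATS, had 3 probes at log2 ratios of -0.35, 0.51 and -0.11. Nf2 had 2 probes of the same sign but unlike size, 1.71-fold and 6.87-fold higher, the second from 6.89% in control to 47.3% in cast. Slmap, a partner of striatins, was at -0.09 by its bright probe and 2.03-fold lower by its dim one. With spike-in scaling each log2 ratio lies 0.35 higher, which would turn the sign of Stk38l at -0.35 and -0.11 and of Slmap at -0.09. These genes were singled out after their values were seen, and which transcripts the probes read was not tested.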
